A study of Mus musculus with 6 samples.

Results

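The ADAM sheddases examined here are 6 genes, Adam8, Adam9, Adam10, Adam15, Adam17 and Adam19, chosen by symbol from 41388 genes listed in each table. All 6 passed the filter on low counts and stood among the 11303 genes tested. RNA was sequenced from macrophages of the aortic intima of C57BL/6 mice with the genotype ApoE -/-, which form atherosclerotic plaques, after 28 weeks on a Western diet. Every group shares that genotype and diet, and no untreated or wild-type group was analysed here. Live CD64+CD11b+ cells were sorted as foamy (high in side scatter and in BODIPY, which stains neutral lipid) or non-foamy (low in both), with 3 libraries of each. The series used 6 mice, and no label says whether a library holds 1 mouse or a pool. The p-values therefore rest on the spread among libraries alone, which may be technical.

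ADAM proteins (a disintegrin and metalloprotease) are membrane-anchored proteases. Many of them cut other membrane proteins close to the cell surface, a step called shedding, which releases soluble cytokines and growth factors and removes receptors from the cell. The proteases are made as inactive precursors, and many are cleaved by furin-type convertases in the secretory pathway. The active site uses a zinc ion held by histidines. In macrophages ADAM17, also known as TACE, is best known for releasing TNF, and ADAM10 for cutting Notch receptors and the transmembrane chemokines CX3CL1 and CXCL16. RNA levels do not report protease activity, which is regulated after translation.

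The coding sequences of all 6 genes hold the zinc site that makes the proteins proteases, and it is shown here because it is the feature the members share. Each line gives the 33 bases that encode the zinc-binding stretch in 1 GENCODE M21 transcript of the gene (GRCm38), read 5′ to 3′ on the coding strand, with the codons of the 3 zinc-binding histidines in capitals.
Adam8: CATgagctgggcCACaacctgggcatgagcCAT
Adam9: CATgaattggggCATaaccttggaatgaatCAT
Adam10: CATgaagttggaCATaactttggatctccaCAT
Adam15: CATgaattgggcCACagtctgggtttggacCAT
Adam17: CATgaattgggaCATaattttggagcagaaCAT
Adam19: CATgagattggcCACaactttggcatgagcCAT
Adam8 and Adam19 are the closest pair over this stretch, with 29 of 33 bases identical. Adam10 shares 26 bases with Adam17 and 19 with Adam8. The stretch lies in exon 11 of 5 genes, at chr7:139987893-139987925 (Adam8, minus strand), chr8:24990326-24990358 (Adam9, minus), chr3:89344780-89344812 (Adam15, minus), chr12:21336732-21336764 (Adam17, minus) and chr11:46125050-46125082 (Adam19, plus). In Adam10 it is split by an intron, with 30 bases at the end of exon 9 (chr9:70754296-70754325, plus strand) and 3 bases at the start of exon 10 (chr9:70761583-70761585). Despite the shared site, no window of 50 bases, the read length, was common to transcripts of any 2 members. Windows shared with transcripts of other genes, on either strand, made up 15.4% of those of Adam15, 4.83% of Adam17 and 8.35% of Adam19, and none of those of Adam8, Adam9 and Adam10. Reads from the shared windows cannot be assigned by sequence alone.

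Total counts in genes ran from 15628627 to 24619075 per library. Foamy libraries had counts in 15595 to 17757 genes and non-foamy libraries in 19380 to 24701 genes, the highest number being that of non-foamy replicate 1. Apoe, the disrupted gene, gave reads in all libraries, with means of 4.96 ± 1.78 CPM (foamy) and 4.44 ± 1.65 CPM (non-foamy) (SD, n = 3). CPM values are counts relative to library size, here always scaled by the TMM method. Of the genes whose proteins were stained for the sort, Itgam (CD11b) had 77.8 ± 7.80 CPM (foamy) and 142 ± 13.3 CPM (non-foamy), and Fcgr1 (CD64) 232 ± 44.7 and 181 ± 52.9 CPM. All 10 macrophage markers on the list used were measured in both groups. They summed to 24778 to 32481 CPM in the foamy group against 19702 to 28158 CPM in the non-foamy group. By the test described next, 2 members were higher and 4 lower in foamy libraries. Of all tested genes, 2.50% were higher and 2.90% lower. Lists for other cell types were low: summed CPM ran from 16.3 to 28.6 for 8 T cell genes, 11.8 to 23.7 for 6 B cell genes, 8.74 to 14.6 for 8 endothelial genes and 3.27 to 28.2 for 8 smooth muscle genes. The 7 fibroblast genes reached 168 CPM in foamy replicate 3, 119 CPM in non-foamy replicate 1 and 305 CPM in non-foamy replicate 3, against 3.06 to 10.5 CPM in the other 3 libraries.

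Foamy and non-foamy macrophages were compared to ask whether sheddase RNA differs with lipid loading. Adam19 was lower in foamy libraries, and the other 5 genes did not pass the test. For Adam10 and Adam17, the main sheddases of macrophages, the log2 fold changes, foamy over non-foamy, were -0.25 and -0.04. In bulk samples fewer cells of a type and less RNA per cell cannot be told apart. Of the 6 members, 1 passed an adjusted p of 0.05 (edgeR, Benjamini-Hochberg over all genes tested), where 5.41% of all tested genes did and 2.90% did so by being lower in foamy libraries. These were 328 genes lower and 283 higher, against 614 lower and 165 higher when counts were scaled to their totals alone. In 4 members, Adam8, Adam10, Adam15 and Adam19, the foamy and non-foamy ranges of CPM did not meet. This was so for 25.7% of all tested genes. The median log2 fold change was -0.15 over the members and -0.04 over all genes tested. Scaling to total counts alone put the median of all genes at -0.31, and on that scale Adam8 stood at 0.51, Adam17 at -0.32 and Adam19 at -1.79.

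Levels were compared between genes on the deposited RPKM scale, which divides by gene length. Adam10 ranked first in every library, at 38.1, 49.9 and 45.6 RPKM over foamy replicates 1 to 3, against 69.4, 59.8 and 61.4 RPKM over the non-foamy ones. Adam8 ranked second in every library, at 32.2, 33.9 and 38.7 RPKM in foamy and 39.6, 18.8 and 15.1 RPKM in non-foamy libraries. The ranges of Adam10 and Adam8 met in foamy libraries and were apart in non-foamy libraries. Adam17 (11.3 to 12.1 RPKM foamy, 12.9 to 15.5 RPKM non-foamy) and Adam9 (9.10 to 16.5 RPKM foamy, 10.7 to 13.4 RPKM non-foamy) exchanged the third and the fourth place between libraries, and their ranges overlapped in both groups. The range of Adam8 also overlapped that of Adam17 in non-foamy libraries. Adam19 took the fifth place (0.81 to 1.12 RPKM foamy, 2.85 to 4.40 RPKM non-foamy) and Adam15 the last (0.29 to 0.68 RPKM foamy, 1.00 to 1.15 RPKM non-foamy) in every library, and their ranges did not overlap within a group. By mean RPKM over the 6 libraries, Adam10 stood above 91.5% of tested genes, Adam8 above 86.9%, Adam17 above 77.4%, Adam9 above 76.9%, Adam19 above 42.4% and Adam15 above 20.8%.

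**Figure D1:**
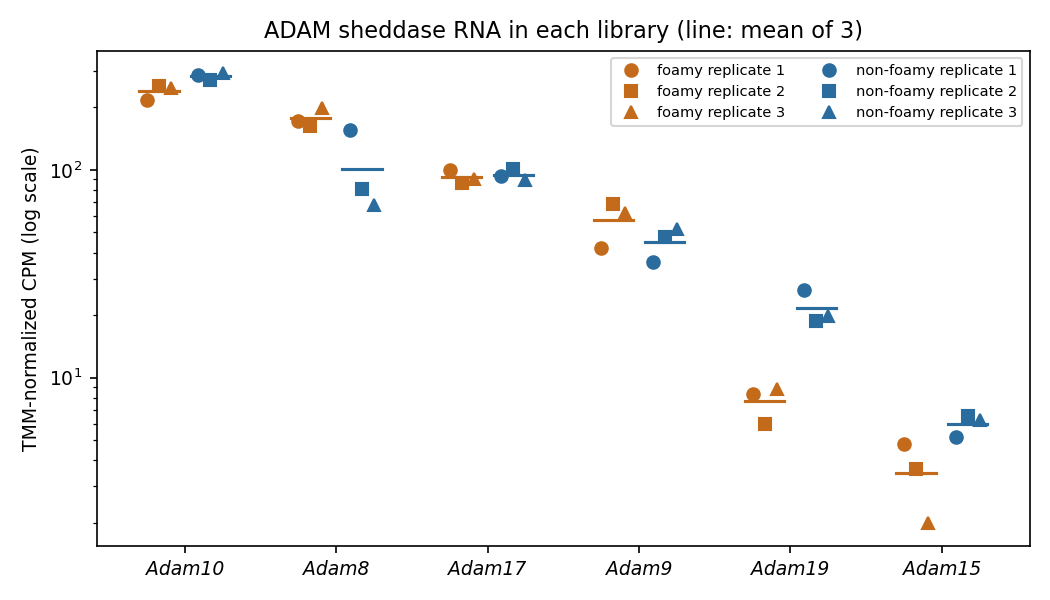
TMM-normalized CPM (log axis) of each ADAM sheddase gene in 3 foamy (orange) and 3 non-foamy (blue) libraries, with the marker shape giving the replicate number and the line the mean. The groups are apart for Adam19 and overlap for Adam17 and Adam9, and non-foamy replicate 1 stands near the foamy libraries for Adam8.

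Adam17 lies on chromosome 12 from 21323509 to 21373632 (ENSMUSG00000052593, minus strand). It was measured at 100.1, 86.6 and 89.9 CPM over foamy replicates 1 to 3 and at 93.6, 101.5 and 89.2 CPM over the non-foamy ones. The groups overlapped. The log2 fold change was -0.04 (SE 0.19, 95% interval -0.46 to 0.37, edgeR adjusted p = 0.95). Between the lowest and the highest of the 6 libraries, the CPM of Adam17 differed 1.17-fold. At its 3′ end, 97 of its 7154 exonic bases are shared with exons of Iah1 on the opposite strand, a gene with 940 to 1772 counts per library, and the strand setting of the counting is not stated.

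Adam10 lies on chromosome 9 from 70678997 to 70780229 (ENSMUSG00000054693, plus strand). Its foamy libraries held 216, 254 and 249 CPM and its non-foamy libraries 287, 272 and 292 CPM. Each foamy value was lower than each non-foamy value, but the gene did not pass the test. The log2 fold change was -0.25 (SE 0.17, 95% interval -0.61 to 0.12, edgeR adjusted p = 0.49), and it lay between -0.52 and -0.15 under 16 other settings, none of which called it.

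Adam8, which is expressed mainly in leukocytes and sheds adhesion molecules such as L-selectin, lies on chromosome 7 from 139978932 to 139992562 (ENSMUSG00000025473, minus strand). Foamy libraries held 172, 163 and 199 CPM. Non-foamy libraries held 155 CPM in replicate 1 but 80.6 and 67.8 CPM in replicates 2 and 3. The groups did not overlap on this scale, yet non-foamy replicate 1 lay nearer to the foamy libraries than to the other non-foamy ones. On the deposited RPKM scale, without TMM factors, that library was the highest of the 6. The log2 fold change was 0.81 (SE 0.29, 95% interval 0.18 to 1.44, edgeR adjusted p = 0.14). Without non-foamy replicate 1 the difference was 1.26 and passed the test (edgeR adjusted p = 0.0063), as it did without a filter on low counts (0.95, edgeR adjusted p = 0.0090), whereas it was 0.51 when scaled to total counts alone (edgeR adjusted p = 0.40). Genes of neutrophils, leukocytes that also express Adam8, summed to 67.9, 45.7 and 72.9 CPM in the foamy group against 25.7, 46.7 and 16.4 CPM in the non-foamy group. Most of the foamy sum came from Mmp8 (40.5, 29.9 and 44.6 CPM) and Csf3r (25.0, 13.2 and 21.6 CPM). Of the 10 neutrophil genes 5 were tested, 3 with a log2 fold change above 0 and 2, S100a8 and S100a9, with one below 0. By the test Mmp8 was higher in foamy libraries and S100a9 lower, where 2.50% of all tested genes were higher and 2.90% lower. The sum does not show that neutrophil genes as a set were higher. Camp was at 0 in every library, and Ly6g was at 0 in all libraries except non-foamy replicate 1 (0.16 CPM). The part of these genes in the Adam8 values was not tested.

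Adam9, a widely expressed sheddase, lies on chromosome 8 from 24949611 to 25016922 (ENSMUSG00000031555, minus strand). Foamy libraries held 42.0, 68.5 and 61.8 CPM and non-foamy libraries 36.1, 47.4 and 52.1 CPM. Foamy replicate 1 lay within the non-foamy range. The log2 fold change was 0.34 (SE 0.26, 95% interval -0.23 to 0.91, edgeR adjusted p = 0.55).

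Adam19, also called meltrin beta and known for its part in heart development, lies on chromosome 11 from 46055992 to 46147343 (ENSMUSG00000011256, plus strand). Foamy libraries held 8.35, 5.95 and 8.84 CPM and non-foamy libraries 26.4, 18.8 and 19.9 CPM. Every foamy value was under the lowest non-foamy value by at least 2-fold. The log2 fold change was -1.49 (SE 0.35, 95% interval -2.27 to -0.71, edgeR adjusted p = 0.033), or 2.82-fold more RNA in non-foamy libraries. The call rested on all 6 libraries together: each foamy library left out in turn gave -1.55, -1.33 and -1.59, and each non-foamy library -1.33, -1.58 and -1.54, with adjusted p from 0.057 to 0.14. It was also lost against a 1.5-fold change (edgeR adjusted p = 0.12), without a filter on low counts (-1.37, adjusted p = 0.058) and with the replicate number as a block (-1.50, adjusted p = 0.085). DESeq2 called it (-1.47, adjusted p = 0.00011). The level was low, at 107 to 176 counts per foamy and 342 to 507 per non-foamy library. The antisense genes Gm16033 and Gm16034, which cover 587 and 480 of its 7115 exonic bases, had 0 counts in every library. Neither the strand setting nor the assignment of reads in bases shared by 2 genes is stated. These counts therefore do not show whether the antisense genes were expressed, or whether Adam19 lost reads there.

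Monocyte genes, and dendritic cell genes in their sum, were lower in the same foamy libraries as Adam19. The 8 monocyte genes summed to 18.5 to 28.2 CPM in the foamy group against 352 to 658 CPM in the non-foamy group. Of 7 tested, 5 were lower, where 2.90% of all tested genes were lower, and Plac8 was at 0 in 2 foamy libraries. The 7 dendritic cell genes summed to 0.38 to 16.1 CPM in the foamy group against 33.02 to 252 CPM in the non-foamy group. Most of the non-foamy sum came from Cd209a, the only one tested, which did not pass. Clec9a went the other way, at 0, 1.22 and 1.78 CPM in the foamy group and 0 in every non-foamy library. The part of the monocyte and dendritic cell genes in the Adam19 difference was not tested.

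Adam15, whose disintegrin domain binds integrins, lies on chromosome 3 from 89338542 to 89349996 (ENSMUSG00000028041, minus strand). Foamy libraries held 4.79, 3.62 and 1.99 CPM and non-foamy libraries 5.18, 6.54 and 6.28 CPM. The groups did not overlap, with 37 to 160 counts per library. The log2 fold change was -0.79 (SE 0.57, 95% interval -2.05 to 0.47, edgeR adjusted p = 0.53). The antisense gene 4731419I09Rik shares 1263 of its 6145 exonic bases and had at most 1 count in a library. How reads in the shared bases were assigned is not stated.

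**Figure D2:**
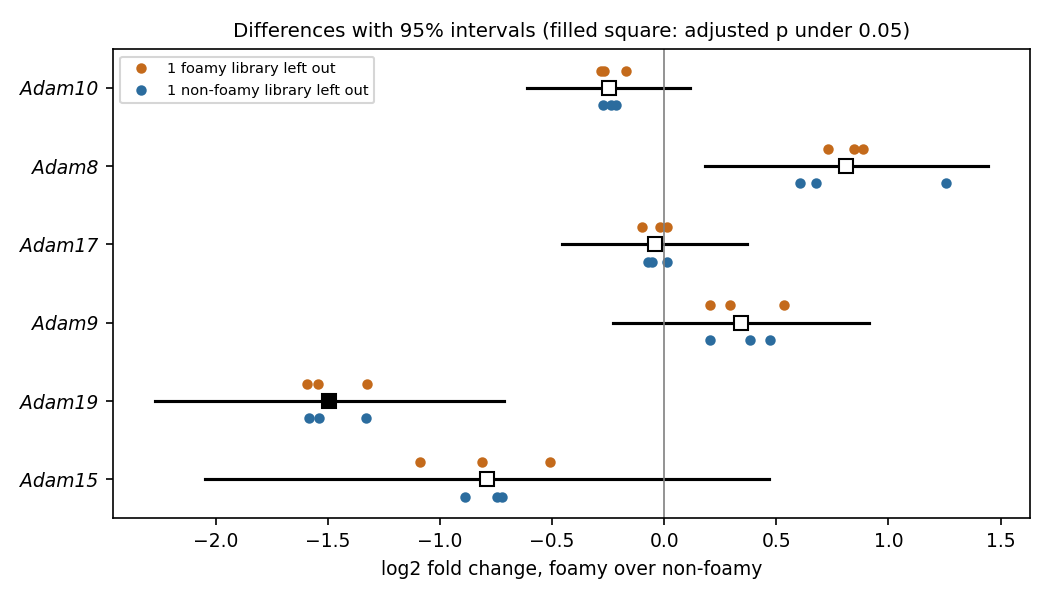
Log2 fold change of each gene, foamy over non-foamy (squares, filled where adjusted p is under 0.05), with its 95% interval as a line and the values after leaving out 1 foamy (orange) or 1 non-foamy (blue) library as points. Adam19 lies at -1.49 with all points between -1.59 and -1.33, Adam17 at -0.04 with points on both sides of 0, and 1 point of Adam8 moves out to 1.26.

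The summed RPKM of the 6 genes was 93.3, 113 and 111 over foamy replicates 1 to 3 and 141, 111 and 107 over the non-foamy ones, and the groups overlapped. Within that sum Adam10 made up 42.0% ± 1.73 in foamy and 53.6% ± 4.09 in non-foamy libraries (SD, n = 3). The share of Adam8 was 34.5%, 29.9% and 34.9% in foamy and 28.2%, 17.0% and 14.2% in non-foamy libraries. Both shares separated the groups, with the Adam10 share lower and the Adam8 share higher in every foamy library. Adam17 made up 11.2% ± 1.60 and 12.3% ± 1.42, and Adam9 12.3% ± 2.41 and 10.6% ± 2.63, in foamy and non-foamy libraries, with overlap in each case. Adam19 made up 0.94% ± 0.20 in foamy and 2.80% ± 0.29 in non-foamy libraries. The ratio of Adam8 to Adam17 RPKM was 2.65, 2.90 and 3.42 in foamy and 2.55, 1.23 and 1.17 in non-foamy libraries. That of Adam10 to Adam17 was 3.14, 4.27 and 4.03 against 4.47, 3.90 and 4.76, which overlapped. Shares within a fixed sum depend on each other, and these are given as a description with no test.

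**Figure D3:**
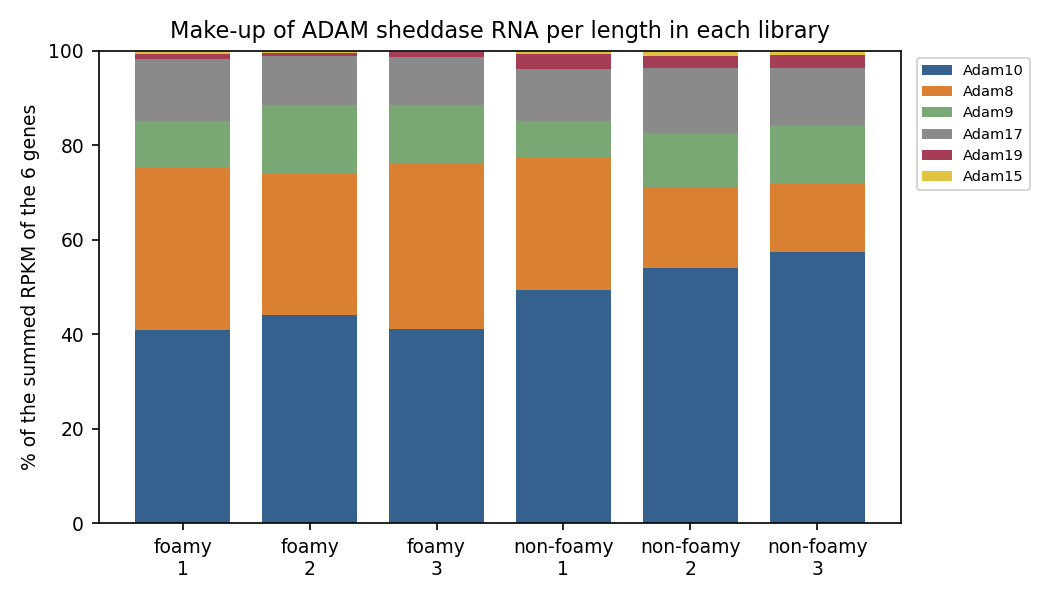
Share of each gene in the summed RPKM of the 6 ADAM sheddase genes, in percent, for each of the 6 libraries. Adam10 is the largest part throughout, and Adam8 takes 29.9% to 34.9% in foamy libraries and 14.2% to 28.2% in non-foamy libraries.

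The genes most like each member over the 6 libraries were sought among 5997 protein-coding genes with a mean of at least 10 CPM. Likeness was the root mean square distance between log2(CPM + 0.5) values, each gene centred on its own mean. It is smallest for flat genes. Neighbours were chosen on the same 6 libraries, so their direction and pattern follow from the choice and are no separate evidence. Nearest to Adam17 were Nucb2 (0.044 log2 units) and Ywhah (0.050), and near to Adam10 was Mapk1ip1l (0.067). Adam9 lay nearest to BC005537 (0.078) and Zfp677 (0.085). Adam15 lay nearest to Nfat5 (0.104) and S100a4 (0.141). None of these genes passed the test between the groups, though S100a4 did when scaled to total counts alone (-1.12). Pitpnc1 (0.094) and Abcc3 (0.103) were nearest to Adam8 and, like it, stood higher in non-foamy replicate 1 than in the other non-foamy libraries: Pitpnc1, which was called without non-foamy replicate 1 (1.45), with limma-voom (1.09) and with no filter (1.10), was measured at 240, 233 and 264 CPM in the foamy group against 200, 97.9 and 81.5 CPM in the non-foamy group. Nearest to Adam19 were the transcription factor gene Trps1 (0.104, log2 fold change -1.47, edgeR adjusted p = 0.011) and the kinase gene Pim1 (0.126, log2 fold change -1.54, edgeR adjusted p = 0.0016), both lower in foamy libraries. The Trps1 call was lost without foamy replicate 2 (-1.30) and against a 1.5-fold change.

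RefSeq promoter windows, from 250 bases before to 50 bases after a start (GRCm38.p6), were found for 5 of the 6 genes, with 7 windows in all, 3 of them for Adam19. The windows of Adam19 and Adam8 are printed because these genes had the 2 largest differences between the groups that were measured with more than 100 counts in every library. Of the 3 Adam19 windows, the one shown contains the start of the gene as deposited, and the others are chr11:46054252-46054551, with an E-box match at -130, and chr11:46127654-46127953, with no match. The motifs searched, on both strands, were AP-1 (TGANTCA, in 7.81% of 32851 windows), an E-box (CACGTG, in 7.15%), PU.1 (GAGGAAGT, in 3.20%) and SP1 (GGGCGG, in 35.7%), and matches are in capitals. The windows are chr11:46055734-46056033 (plus strand) and chr7:139992513-139992812 (minus strand).
Adam19: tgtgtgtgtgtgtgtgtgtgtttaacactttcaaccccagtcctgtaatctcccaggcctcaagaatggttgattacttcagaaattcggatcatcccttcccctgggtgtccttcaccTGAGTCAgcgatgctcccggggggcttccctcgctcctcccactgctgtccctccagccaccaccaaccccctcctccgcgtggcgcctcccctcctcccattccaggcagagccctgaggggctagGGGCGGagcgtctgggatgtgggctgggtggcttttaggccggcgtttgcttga
Adam8: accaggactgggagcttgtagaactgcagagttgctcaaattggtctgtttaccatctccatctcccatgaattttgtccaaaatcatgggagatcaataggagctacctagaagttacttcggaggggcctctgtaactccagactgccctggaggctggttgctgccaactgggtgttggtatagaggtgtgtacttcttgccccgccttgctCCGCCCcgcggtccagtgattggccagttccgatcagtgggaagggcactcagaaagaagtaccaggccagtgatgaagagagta
The Adam19 window held 1 AP-1 match at -131 and 1 SP1 match at -4, and the Adam8 window 1 SP1 match at -35, counted from the annotated start. Among the 5 members with a window, Adam19, which had 3 of the 7 windows searched, was the only one with an AP-1 match. Adam9 had no window. The Adam10 window held 1 E-box match at -64 and 3 SP1 matches, the Adam15 window 5 SP1 matches and the Adam17 window 1 SP1 match at -75. PU.1 had no match in any of the 7 windows. A match is a description of these letters and was not linked to any factor by a measurement here.

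Genes that mature or guide the sheddases, and genes of metalloprotease inhibitors, were next counted from lists of known components. Of 5 genes for ADAM17 partners, 1 was lower in foamy libraries and 4 did not pass, with a median log2 fold change of 0.03, where 2.90% of all tested genes were lower. The member that fell was Rhbdf1, which encodes iRhom1, one of the inactive rhomboid proteins that carry ADAM17 to the surface. Its foamy libraries held 2 counts together and its non-foamy libraries 103, which is a 47.7-fold ratio with an exact 95% counting interval of 12.9 to 399. That interval covers counting error in pooled counts and not the spread among libraries, with 43, 9 and 51 counts in the non-foamy ones. With that spread, the edgeR log2 fold change of Rhbdf1 was -5.32 (95% interval -8.32 to -2.31). Its call was lost without any 1 of the 3 foamy libraries, without non-foamy replicate 1 or without non-foamy replicate 2 (edgeR adjusted p from 0.073 to 0.19), and without non-foamy replicate 3 it was not tested. Rhbdf2, which encodes iRhom2, the form that immune cells mainly use, was measured at 9.58, 10.96 and 8.78 CPM in the foamy group against 19.8, 12.9 and 14.6 CPM in the non-foamy group. The groups of Rhbdf2 were apart without passing the test (log2 fold change -0.69 with SE 0.36, adjusted p = 0.35 by edgeR). Frmd8, whose protein stabilises the iRhom complex, had a log2 fold change of 0.37 (SE 0.61, edgeR adjusted p = 0.82).

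TspanC8 tetraspanins escort ADAM10 out of the endoplasmic reticulum. Of 6 such genes 3 were tested and none passed the edgeR test, with no unadjusted p under 0.05 and no call under any of 16 other settings. As 5.41% of all tested genes were called, an absence of calls among so few genes says little about them. Tspan14 was measured at 45.7, 57.8 and 64.9 CPM in the foamy group against 63.1, 27.0 and 39.2 CPM in the non-foamy group (log2 fold change 0.38 with SE 0.31). Tspan5 had a log2 fold change of 1.12 with an SE of 0.71. Tspan10, Tspan15 and Tspan33 stayed under 1 CPM in every library. Of 4 proprotein convertase genes 2 were tested, again with no call by edgeR or any other setting and no unadjusted p under 0.05. The same limit of few genes holds for them. Furin encodes a convertase that removes the inhibitory prodomain of many ADAM proteins. Its RNA was measured at 118, 67.7 and 121 CPM in the foamy group against 113, 107 and 122 CPM in the non-foamy group (log2 fold change -0.16 with SE 0.24, adjusted p = 0.81 by edgeR).

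Of 5 inhibitor genes 2 were tested, and neither passed, where 5.41% of all tested genes did. Both had an unadjusted p under 0.05 and groups that did not overlap. Groups without overlap were common, being found for 25.7% of all tested genes. Timp2, a tissue inhibitor of metalloproteases, was measured at 284, 411 and 346 CPM in the foamy group against 228, 191 and 215 CPM in the non-foamy group (log2 fold change 0.71 with SE 0.19, adjusted p = 0.053 by edgeR). It passed with upper-quartile factors (0.74), DESeq2 (0.73), no filter on low counts (0.82) and a stricter filter (0.69). It did not pass with total counts only (0.45), nor with any 1 library left out (0.58 to 0.84, edgeR adjusted p from 0.058 to 0.21). Timp1, which can inhibit ADAM10, was measured at 22.5, 26.3 and 14.2 CPM against 9.12, 11.8 and 7.73 CPM (log2 fold change 1.13 with SE 0.37, adjusted p = 0.11 by edgeR), and passed with DESeq2. Timp3, the main natural inhibitor of ADAM17, had too few counts for the test, at 0.22 to 1.24 CPM in the foamy group against 0.32 to 0.75 CPM in the non-foamy group. Timp4, also under the filter, had 0 counts in every foamy library and 50, 0 and 46 counts in the non-foamy libraries, and was called lower in foamy libraries when no filter was used.

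Ligands that sheddases release came next. Of 16 genes on that list 8 were tested, and 4 (Tnfsf9, Tnf, Areg and Jag1) were lower and none higher in foamy libraries, where 2.90% of all tested genes were lower and 2.50% higher. The list's median log2 fold change was -1.28, beside -0.04 for all genes. Tnf, whose membrane form ADAM17 cuts, was measured at 32.6, 59.4 and 45.2 CPM in the foamy group against 236, 197 and 240 CPM in the non-foamy group (log2 fold change -2.30 with SE 0.24, adjusted p = 3.0e-04 by edgeR). Each non-foamy value was over 3 times the highest foamy value. Areg, which encodes the EGF receptor ligand amphiregulin, was measured at 0.19, 0.06 and 0 CPM in the foamy group against 10.4, 9.83 and 13.4 CPM in the non-foamy group (log2 fold change -6.95 with SE 0.88, adjusted p = 9.8e-04 by edgeR), and without foamy replicate 1 the log2 fold change was -8.37. Tnfsf9, the ligand of the costimulatory receptor 4-1BB, had the highest level of the 4 in the non-foamy group, at 1146, 999 and 950 CPM against 75.9, 51.6 and 47.6 CPM in the foamy group (log2 fold change -4.15 with SE 0.23).

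Jag1, a ligand of Notch receptors, was measured at 45.3, 40.1 and 50.8 CPM in the foamy group against 117, 80.7 and 93.3 CPM in the non-foamy group (log2 fold change -1.10 with SE 0.22, adjusted p = 0.016 by edgeR). The Jag1 call was lost without foamy replicate 1 (-1.09), 2 (-1.004) or 3 (-1.18), and against a 1.5-fold change. Hbegf, another EGF receptor ligand, did not pass, with a log2 fold change of -1.46 (SE 0.71), nor did Csf1, with 1.06 (SE 0.73). Cxcl16, a substrate of ADAM10 named here after its values were seen, was the most abundant substrate ligand that did not pass, at 888, 768 and 765 CPM in the foamy group against 785, 878 and 1009 CPM in the non-foamy group (log2 fold change -0.15 with SE 0.17). Genes that tissue digestion can induce, the immediate early and heat shock genes, were lower in the same foamy libraries. They summed to 2487 to 2970 CPM in the foamy group against 5683 to 8140 CPM in the non-foamy group. By the test 14 of 19 were lower, where 2.90% of all tested genes were lower. Their part in the ligand differences, and that of the monocyte genes, was not tested.

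Among 30 receptor and adhesion genes whose proteins can be shed, 28 were tested, 4 were higher and 6 lower in foamy libraries, and 18 did not pass, with a median of -0.20, where 2.50% of all tested genes were higher and 2.90% lower. The 4 that rose were Trem2, Mertk, Msr1 and Sdc1, and Mertk and Csf1r also stand on the macrophage marker list. Mertk, a receptor for apoptotic cells that ADAM17 cuts, was measured at 83.3, 139 and 113 CPM in the foamy group against 36.4, 47.1 and 45.8 CPM in the non-foamy group (log2 fold change 1.37 with SE 0.24, adjusted p = 0.0074 by edgeR). Trem2, a lipid-sensing receptor cut by ADAM10 and ADAM17, was measured at 1949, 1587 and 1580 CPM against 532, 648 and 755 CPM. The scavenger receptor gene Msr1 had a log2 fold change of 1.07 (SE 0.20) and was not called against a 1.5-fold change. Sdc1, which encodes the heparan sulfate proteoglycan syndecan-1, was measured at 15.2, 15.6 and 16.6 CPM in the foamy group against 4.15, 4.01 and 3.10 CPM in the non-foamy group (log2 fold change 2.07 with SE 0.41). Its call was lost without foamy replicate 1 (2.11), 2 (2.09) or 3 (2.04) and with the replicate number as a block (2.08).

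The 6 that fell were Cd163, Il1r2, Spn, Sdc4, F11r and Csf1r. Sdc4, syndecan-4, moved opposite to Sdc1, at 677, 582 and 608 CPM in the foamy group against 1973, 1668 and 1869 CPM in the non-foamy group (log2 fold change -1.56 with SE 0.17, adjusted p = 3.0e-04 by edgeR). Csf1r, the receptor of the macrophage growth factor CSF1, was measured at 137, 134 and 124 CPM in the foamy group against 237, 352 and 367 CPM in the non-foamy group (log2 fold change -1.28 with SE 0.20, adjusted p = 0.0043 by edgeR). Il1r2, the decoy receptor of interleukin-1, was measured at 12.2, 1.89 and 1.35 CPM against 177, 125 and 63.4 CPM. Foamy replicate 1 held most of the foamy Il1r2 RNA, and the log2 fold change moved from -4.55 to -6.22 without it, while the call was lost without non-foamy replicate 2 (-4.53), without a filter (-4.41) and with a stricter one (-4.58).

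Cd163, the haemoglobin scavenger receptor, varied widely among non-foamy libraries, at 1.67, 42.3 and 12.4 CPM, against 0.09 to 0.33 CPM in foamy libraries. Its log2 fold change was -6.56 (SE 1.13), or -5.14 without non-foamy replicate 2, and limma-voom did not call it. F11r, the junctional adhesion molecule gene, had a log2 fold change of -1.49 (SE 0.33), and its call was lost without foamy replicate 3 (-1.64), non-foamy replicate 1 (-1.41) or non-foamy replicate 2 (-1.48), and against a 1.5-fold change. Spn, which encodes the sialomucin CD43, had a log2 fold change of -1.68 (SE 0.36), which was not called when foamy replicate 1 (-1.58), foamy replicate 3 (-1.50), non-foamy replicate 1 (-1.58) or non-foamy replicate 3 (-1.62) was left out, with the replicate number as a block (-1.72) or against a 1.5-fold change. Aplp2, a relative of the amyloid precursor (0.76, SE 0.20), and Notch2 (-0.75, SE 0.25) did not pass, with edgeR adjusted p of 0.054 and 0.13. Aplp2 was called without non-foamy replicate 1 (0.90). The monocyte genes (18.5 to 28.2 CPM foamy, 352 to 658 CPM non-foamy) moved with the receptors that fell. So did the dissociation and heat shock genes, with 14 of 19 lower, where 2.90% of all tested genes were lower. The part of both lists was not tested.

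The classic receptor substrates of ADAM17, named here after their values were seen, did not pass. Tnfrsf1a and Tnfrsf1b, the receptors of TNF, had log2 fold changes of -0.32 (SE 0.28) and 0.01 (SE 0.33). Il6ra, the interleukin-6 receptor gene, was measured at 5.93, 4.34 and 6.09 CPM in the foamy group against 10.2, 9.12 and 12.2 CPM in the non-foamy group (log2 fold change -0.95 with SE 0.44, adjusted p = 0.27 by edgeR).

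**Figure D4:**
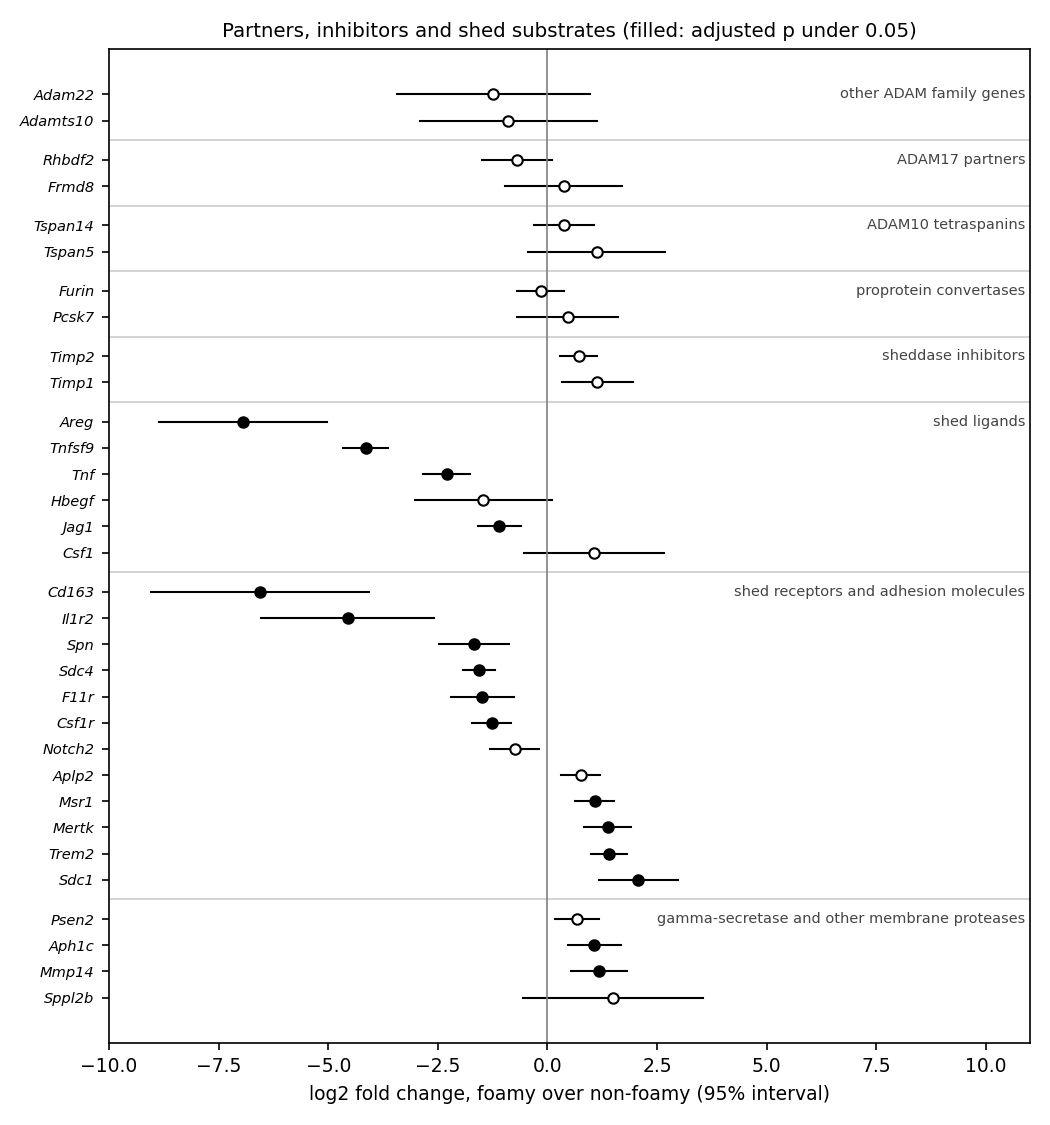
Log2 fold change, foamy over non-foamy, with 95% intervals, for the named partner, inhibitor, protease and substrate genes in their lists (filled circles: adjusted p under 0.05); Rhbdf1 and Adamts6, with 2 and 0 foamy counts, are not drawn. Called ligands all lie left of 0, called receptors lie on both sides, and no partner, tetraspanin, convertase or inhibitor drawn is filled.

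Membrane proteases that act beside or after the sheddases were the last list. Gamma-secretase cuts the stub that shedding leaves in the membrane. Of 13 genes on the list 12 were tested, 2 were higher in foamy libraries and none lower, with a median of 0.25, where 2.50% of all tested genes were higher. The 2 were Mmp14, a membrane-type matrix metalloprotease, at 45.0, 73.5 and 44.1 CPM in the foamy group against 19.0, 23.9 and 29.0 CPM in the non-foamy group (log2 fold change 1.17 with SE 0.29, adjusted p = 0.041 by edgeR), and the gamma-secretase subunit gene Aph1c, at 44.5, 63.3 and 44.2 against 26.9, 27.5 and 18.2 CPM (1.06, SE 0.28, edgeR adjusted p = 0.048). Reads of Aph1c are uncertain because Aph1b is a close copy of it, and how reads matching both were handled is not stated. Neither was called with total counts as the only scaling (0.93 and 0.79) or with the replicate number as a block (1.15 and 1.07). Leaving out any 1 library ended the Aph1c call (values of 1.16, 0.88 and 1.16 for the foamy and 1.15, 1.17 and 0.91 for the non-foamy replicates, in order). The Mmp14 call was lost without each of these except non-foamy replicate 3 (values of 1.30, 0.90 and 1.31 for the foamy and 1.03 and 1.17 for the first and the second non-foamy replicate). The catalytic subunit gene Psen2 was measured at 48.4, 47.8 and 45.7 CPM in the foamy group against 30.0, 27.6 and 31.0 CPM in the non-foamy group, and did not pass (0.68, SE 0.23, edgeR adjusted p = 0.12). Sppl2b, a signal peptide peptidase-like gene, did not pass either (1.499, SE 0.93).

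Other genes of the ADAM and ADAMTS families were scarce. Of 40 on the list, 29 stayed under 1 CPM in every library. The test covered 5, and 1 was lower in foamy libraries, where 2.90% of all tested genes were lower. That gene, Adamts6, a secreted metalloprotease, had 0 counts in the foamy group and 106 in the non-foamy group. With a floor of 3 counts put in for the foamy group, the ratio of pooled counts was 32.7-fold, which takes no account of the spread among libraries. The non-foamy libraries held 19, 25 and 62 counts. The edgeR log2 fold change of Adamts6 was -8.02 (95% interval -11.8 to -4.24), and its call was lost when any 1 library was left out (edgeR adjusted p up to 0.10). Adam22 ran from 0.60 to 15.1 CPM within the non-foamy group alone and did not pass (log2 fold change -1.24 with SE 1.00). Adamts10 did not pass either (-0.89, SE 0.92).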

How the data were processed

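STAR 2.0.4b (an aligner), Subread, featureCounts 1.4.5 (a read counter) and the build GRCm38 are named in the submitters' processing notes. The deposited counts are whole, unscaled reads per gene. The deposited CPM are those counts relative to the library total in genes, and the deposited RPKM are that CPM per kilobase of the listed length, checked on every gene to 1e-06. Neither the strand setting nor the treatment of multi-mapping reads is given in the sources used here. Per the labels' protocols, tissue was digested for 70 min at 37 °C, the SMARTer Ultra Low kit gave the cDNA, which was amplified in 12 cycles and sequenced as single reads of 50 bases. No molecular identifiers are named, so counting intervals cover counting error only.

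Genes were tested on counts with edgeR 4.0.16 in R 4.3.3 (filterByExpr, TMM, robust quasi-likelihood F-test), Benjamini-Hochberg adjusted over 11303 genes, threshold 0.05. SEs are log2 fold changes over the square root of F, without sign, and intervals use the test's degrees of freedom. Symbols matched 97.26% of gene IDs. The procedure was tested on simulated data. Promoters are RefSeq's on GRCm38.p6, and coding bases GENCODE M21's. Protein sequences were not used here.

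The members and lists were chosen with earlier results of these data known. Named genes are the 6 members, all called genes of the other 8 lists with up to 2 not called, by p, and the 2 nearest profiles of each member, of which 1 is not reported here. Genes named after their values were seen are marked. Alternatives were RLE, upper-quartile and total-count scaling, DESeq2 1.42.0, limma-voom (limma 3.58.1), dropping the filter or asking for 10 counts in 3 libraries and a mean of at least 5 CPM, a block for the replicate number, removal of mitochondrial and ribosomal protein genes, glmTreat against a 1.5-fold change, and omission of each library in turn.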

Additional observations from a re-analysis of the deposited data

How the results depend on the processing

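Over 56 named genes (40 from the lists, 12 nearest profiles and 4 named after their values were seen), 787 of 888 comparisons with an alternative kept direction and side of the threshold, 67 lost a call, 17 gained one and 17 changed sign, none of them after a call. Sign changes were in Adam17 without a filter on low counts (0.061), without foamy replicate 2 (0.011) or non-foamy replicate 2 (0.012), and in Furin without foamy replicate 2 (0.076). With 1 library left out, Adam17 ran from -0.098 to 0.012, Furin from -0.29 to 0.076, Tnfrsf1b from -0.20 to 0.33 and Ywhah from -0.078 to 0.055. Tnfrsf1b also changed sign with total counts only (-0.27) and the stricter filter (-0.016), and Ywhah with upper-quartile factors (0.015), DESeq2 (0.0055) and no filter (0.095). Of 21 called named genes, 8 were called under all alternatives that gave a value. All genes called numbered 611 of 11303 tested, or 779 with total counts only (165 higher, 614 lower) and 276 against a 1.5-fold change. DESeq2 called 1408 among a larger set of 29048 genes. With 1 library left out, 271 to 579 genes were called.

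The count of ADAM sheddase members called, 1 in the edgeR test of all 6 libraries, was 0 against a 1.5-fold change and 0 to 1 with 1 library left out. Without a filter, and without non-foamy replicate 1, the 1 called was Adam8 in place of Adam19. For other ADAM family genes the count of 1 among 5 tested became 2 among 37 with DESeq2, 0 with the stricter filter, and 0 to 0 with 1 library left out. For ADAM17 partners the count of 1 became 0 with limma-voom, without a filter, with the stricter filter, against a 1.5-fold change and with any 1 library left out. For inhibitors the count of 0 among 2 tested became 1 with upper-quartile factors and 1 with the stricter filter. Among 5 inhibitors it was 2 with DESeq2 and 2 without a filter (1 higher, Timp2, and 1 lower, Timp4). For gamma-secretase and other membrane proteases the count of 2 became 0 with total counts only, 0 against a 1.5-fold change, and 0 to 1 with 1 library left out.

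The replicate numbers are shared by label only. Same-numbered libraries deviated from their group means with correlations of -0.07, -0.02 and -0.03, so the numbers were not taken to pair samples. With the replicate number as a block, the count of all genes called was 391, and 0 ADAM sheddases, 0 other ADAM family genes, 0 ADAM17 partners and 0 gamma-secretase and other membrane proteases were called.

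As shares of summed counts, not per length, Adam17 made up 16% in foamy and 17.2% in non-foamy libraries, Adam19 1.34% and 3.90%, and Adam15 1.10% in non-foamy libraries. Adam15 had 37 to 160 counts per library, and what depth adds to its error was not tested.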
